A study of Homo sapiens with 6 samples.

Results

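Complement is a cascade of proteins that marks and lyses cells, and 7 of its genes are described here, C1R, C1S, C3, CFI, CD46, CD55 and CD59. They were chosen by name, with earlier results of these data known. Of them, 3 are components of the cascade (C1R, C1S and C3) and 1 is a soluble inhibitor (CFI). The other 3 are regulators in the cell membrane (CD46, CD55 and CD59). Each of the 7 has 1 row among the 33117 gene symbols of the deposited table. The cells were WPMY-1, an immortalised line of stromal cells from normal human prostate, grown in DMEM with 5% FBS, transduced with lentivirus made in HEK293T cells and selected with puromycin as stable lines. Total RNA was sequenced from 3 libraries that carry the pLKO1 control plasmid (shCtrl) and 3 that carry a short hairpin RNA against CAVIN1 (shCAVIN1), which coats the small flask-shaped pits of the cell surface known as caveolae. The question was how lowering CAVIN1 changes expression in these cells. A single hairpin was used, so an effect of CAVIN1 loss and an effect of the hairpin itself cannot be told apart. The series text calls the libraries of a group independent biological replicates without saying whether they came from separate transductions, so a p-value here reflects variation among the libraries, which may be technical.

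In the classical pathway the proteases C1r and C1s are bound to C1q, and C1s cleaves C4 and C2. The alternative pathway uses factors B and D. Both pathways lead to cleavage of C3, and then C5, before the lytic pore is built on the membrane. Host cells block these steps. CD46 is a cofactor for factor I, the protease that inactivates C3b and C4b, CD55 breaks up the enzymes that cleave C3 and C5, and CD59 stops the last step of the pore. CD55 and CD59 are held in the membrane by a glycosylphosphatidylinositol (GPI) lipid anchor, and CD46 spans it. The liver makes most of the complement in plasma, but fibroblasts and other stromal cells also make C1r, C1s and C1 inhibitor.

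Values are FPKM (fragments per kilobase of transcript, divided by the library's total of mapped fragments), as mean ± SD with n = 3 per group. The sum of FPKM per library lay between 758837 and 1043843, and the 10 rows most abundant on average held 19.0% to 42.3% of it. The number of reads is unknown, so no counting interval can be given and the lowest values are the least precise. CAVIN1, listed under its older symbol PTRF, stood at 330, 347 and 330 FPKM in shCtrl and at 134, 139 and 150 FPKM in shCAVIN1, a mean of 42.0% of control, in the direction of the labels. The stromal markers VIM (280 ± 28.1 FPKM in shCtrl), THY1 (160 ± 9.90 FPKM) and PDGFRB (13.2 ± 1.36 FPKM) were present, while the muscle filament gene DES was near 0 (0.0183 ± 0.0167 FPKM). The leukocyte genes CD163, FCGR3A, TYROBP and CD3E were listed at 0 in all 6 libraries, and 8 hepatocyte genes together summed to at most 0.170 FPKM in any library. Over 12 stromal markers the summed level was 1290 to 1420 FPKM in the shCtrl libraries and 854 to 869 FPKM in the shCAVIN1 libraries. TAGLN made up most of the fall (675 ± 33.3 to 346 ± 12.7 FPKM), and of the 10 markers tested 2 rose (ACTA2, to 9.89 ± 0.287 FPKM, and S100A4, 7.35-fold), 5 fell and 3 did not pass. VIM (296 ± 13.8 FPKM in shCAVIN1), PDGFRB (14.3 ± 0.441 FPKM) and COL1A1 (49.0 ± 17.5 FPKM) did not pass. THY1 fell to 62.7% of control, COL3A1 to 37.5%, COL1A2 to 11.4% and CNN1 to 10.6%. Over 12 macrophage and leukocyte markers the sum was 8.04 to 8.71 and 10.2 to 10.4 FPKM, most of it CD68, which other cells also express. Of the 2 tested, CD68 rose from 6.44 ± 0.469 to 9.25 ± 0.278 FPKM and CD14 fell from 1.22 ± 0.184 to 0.508 ± 0.0964 FPKM. Over 8 epithelial markers the sum was 400 to 434 and 244 to 259 FPKM, most of it KRT18, and over 6 endothelial markers 0.439 to 0.885 and 1.18 to 1.34 FPKM. Of the endothelial markers only TEK was tested. It rose from 0.227 ± 0.0623 to 0.941 ± 0.0177 FPKM and passed the filter only through its shCAVIN1 level. Below the filter, CLDN5 fell from 0.307 ± 0.180 to 0.0966 ± 0.0627 FPKM. The mean of PECAM1 was also lower and those of VWF, CDH5 and KDR were higher, all at very low levels. The part of these shifts in the results below was not tested, and in bulk RNA a change in the mix of cells and a change per cell cannot be told apart.

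CD55 and CD46 were higher in the shCAVIN1 cells, C1R was slightly higher and C1S slightly lower, and CD59 did not pass the test. C3 was almost absent and CFI was low in both groups, and neither reached the filter of a mean of 0.5 FPKM over the 6 libraries. Of the 5 genes tested, 3 rose and 1 fell (limma, adjusted p under 0.05 over 13941 genes). Of all tested genes 55.5% were called, 27.3% as higher and 28.2% as lower, so a call is common in this comparison. CD55 stood furthest out: 91.8% of tested genes had a smaller absolute log2 fold change than CD55, against 58.8% for CD46, 51.1% for C1R, 50.8% for C1S and 8.0% for CD59. The median log2 fold change of the 5 was 0.28, beside -0.02 over all tested genes.

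**Figure D1:**
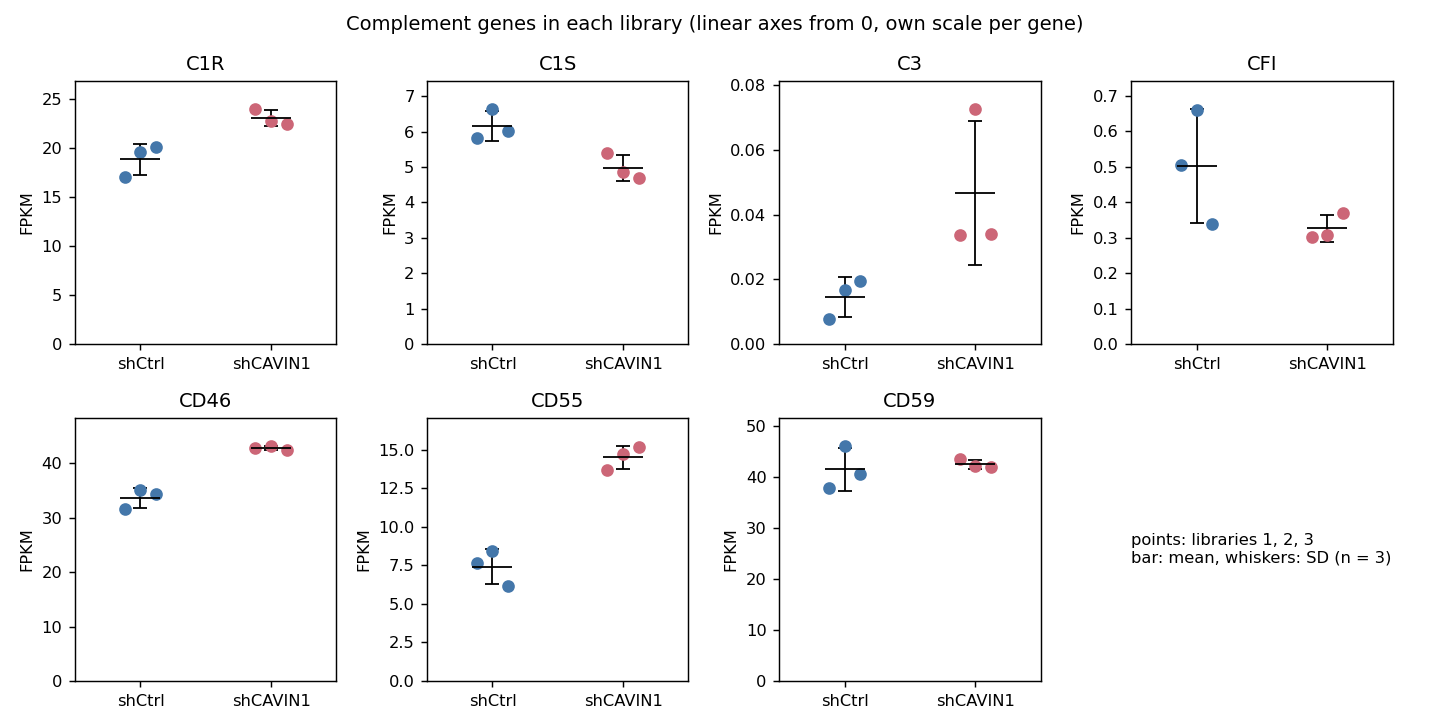
FPKM of the 7 complement genes in each library (vertical axes, linear and from 0, with a scale of their own), shCtrl in blue and shCAVIN1 in red, with the mean (bar) and SD (whiskers, n = 3). The groups are apart for C1R, C1S, C3, CD46 and CD55 and overlap for CFI and CD59, and the C3 axis ends below 0.1 FPKM. Of all tested genes, 64.6% have groups that do not overlap.

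CD55, the decay-accelerating factor, showed the largest change of the 5. Its level was 7.66, 8.40 and 6.18 FPKM in the 3 shCtrl libraries and 13.7, 14.7 and 15.2 FPKM in the 3 shCAVIN1 libraries, in order of replicate number, as in all lists of values here. Every shCAVIN1 library lay well above every shCtrl library. The mean rose 1.96-fold, from 7.41 ± 1.13 to 14.5 ± 0.744 FPKM, with a log2 fold change on log2(FPKM + 0.5) of 0.93 (SE 0.109, 95% interval 0.67 to 1.20, limma adjusted p = 0.00074). The call held under all 18 processing alternatives, at log2 fold changes of 0.82 to 1.06 and adjusted p of 0.000107 to 0.00564. Of the 13941 tested genes, 520 had a higher log2 fold change than CD55.

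CD46, the membrane cofactor protein, rose by less. It stood at 31.7, 35.1 and 34.4 FPKM in shCtrl and at 42.9, 43.2 and 42.4 FPKM in shCAVIN1. The groups did not overlap, as for 64.6% of all tested genes, and the shCAVIN1 libraries lay within 1 FPKM of each other. The mean rose 1.27-fold, from 33.7 ± 1.82 to 42.8 ± 0.415 FPKM (log2 0.34, SE 0.0489, limma adjusted p = 0.00164). The call was lost only when each library was rescaled to a sum of 1000000 (TPM), at log2 0.46 and adjusted p = 0.0745. That rescaling shifted the median log2 fold change over all tested genes to 0.09, against -0.02 as deposited, and left 24.5% of them called.

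CD59, also called protectin, was the most abundant of the 7 genes in shCtrl. It stood at 37.9, 46.1 and 40.5 FPKM in shCtrl and at 43.6, 42.1 and 41.9 FPKM in shCAVIN1. The shCAVIN1 libraries lay inside the range of the shCtrl libraries. The means were 41.5 ± 4.18 and 42.5 ± 0.926 FPKM, with a log2 fold change of 0.04 and a 95% interval of -0.14 to 0.22 (limma adjusted p = 0.67). Its sign turned without shCtrl replicate 1 and under quantile normalization. The same strand of the CD59 locus carries an annotated read-through gene that shares exons with it, and how such fragments were assigned is not stated.

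The genes for CD55 and CD46 lie on the same arm of chromosome 1, in a cluster of complement regulators, and CD59 lies elsewhere. On GRCh38 (GENCODE 29), CD55 spans 207321376 to 207386804 and CD46 spans 207752057 to 207795513, both on the plus strand of chromosome 1, and CD59 spans 33703010 to 33736491 on the minus strand of chromosome 11. The complement receptor genes CR2 (207454230 to 207489895) and CR1 (207496147 to 207641765) lie between CD55 and CD46. CR1 was at or below 0.0237 FPKM and CR2 at or below 0.00654 FPKM in all 6 libraries. On the other side of CD55, C4BPA was listed at 0 in all 6, and its neighbour C4BPB (207088842 to 207099993) stood at 0.101 ± 0.0871 FPKM in shCtrl and 0.395 ± 0.0673 FPKM in shCAVIN1, below the filter. The sequences below, from RefSeq (GRCh38.p14), are shown because CD55 and CD46 rose together and CD59 did not pass the test. They come from the 250 bases before the first transcript start that RefSeq lists for each gene, 5′ to 3′, with capitals marking matches to GGGCGG (a GC box) or TTCNNNGAA (an interferon gamma activated site) on either strand. The CD46 window is whole, and that of CD59 stops at the first exon base annotated by GENCODE. The CD55 window lies inside the gene span given above, over exons of transcripts that start earlier, so only 30 bases around its GC box are shown (-58 to -29 from the RefSeq start).
CD46, chr1:207751788-207752037, plus strand: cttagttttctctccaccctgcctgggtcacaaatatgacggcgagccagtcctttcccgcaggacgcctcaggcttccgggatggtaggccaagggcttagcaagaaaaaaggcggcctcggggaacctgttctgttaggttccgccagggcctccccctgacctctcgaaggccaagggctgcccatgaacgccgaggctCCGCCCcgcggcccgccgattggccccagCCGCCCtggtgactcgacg
CD55, chr1:207321620-207321649, plus strand: ccagcccagaccCCGCCCaaagcactcatt
CD59, chr11:33736492-33736729, minus strand: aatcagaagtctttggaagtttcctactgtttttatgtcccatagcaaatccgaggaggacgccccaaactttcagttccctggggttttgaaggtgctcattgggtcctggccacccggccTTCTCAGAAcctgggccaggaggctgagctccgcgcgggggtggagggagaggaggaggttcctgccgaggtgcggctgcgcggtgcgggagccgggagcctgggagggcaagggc
Of the 7 genes, 5 had an entry among these promoters. The first CD46 window held 2 GC boxes and the CD55 window 1, and the first CD59 window held none but had 1 TTCNNNGAA. This depends on the start taken, since RefSeq lists 4 for CD59 and the second of these windows holds 2 GC boxes. Over 35116 promoter windows of that length, 42.6% held GGGCGG and 6.57% held TTCNNNGAA. TTCNNNGAA was matched in 2 of the 4 windows of CD59, and also in 1 of the 2 windows of C1R, which rose. No window of the 5 genes matched GGGANTTCC (NF-kB, in 1.59% of all windows) or TATAAA (the TATA box, 10.7%), with both strands searched. TTGCNNAA (C/EBP, 9.05%) was matched in both windows of C1R and in 1 later window of CD59, and TGANTCA (AP-1, 6.57%) in another later window of CD59. The matches are letters in a sequence and no binding was measured.

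The makeup of the 3 membrane regulators shifted towards CD55. Their summed level was 82.6 ± 6.34 FPKM in shCtrl and 99.9 ± 0.372 FPKM in shCAVIN1, and the highest shCtrl library (89.6 FPKM) lay below the lowest shCAVIN1 library (99.5 FPKM). CD55 made up 9.93%, 9.37% and 7.63% of that sum in shCtrl and 13.7%, 14.7% and 15.3% in shCAVIN1. CD59 made up 50.2% ± 1.19 in shCtrl and 42.6% ± 0.797 in shCAVIN1, and CD46 40.9% ± 1.6 and 42.9% ± 0.317. In order of level per length, shCtrl cells had CD59 above CD46, then C1R, then CD55 and C1S, whose ranges overlapped, then CFI and C3. In shCAVIN1 cells the ranges of CD46 (42.8 ± 0.415 FPKM) and CD59 overlapped, and CD55 lay above C1S without overlap.

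A ratio of 2 genes within a library needs no scaling between libraries. The ratio of CD55 to CD46 was 0.242, 0.239 and 0.180 in shCtrl and 0.320, 0.340 and 0.358 in shCAVIN1. The ratio of CD59 to CD46 went from 1.23 ± 0.0720 to 0.994 ± 0.0213, and that of CD59 to CD55 from 5.66 ± 0.818 to 2.94 ± 0.217. For each of these 3 ratios the groups did not overlap, with an exact two-sided permutation p of 0.1, the smallest that 3 libraries against 3 allow, and 0.12 adjusted over the 6 ratios computed. A test with this smallest p cannot pass the threshold of 0.05. Another ratio set C1R, C1S and C3 together against CD46, CD55 and CD59 together. It was 0.304 ± 0.016 in shCtrl and 0.281 ± 0.0109 in shCAVIN1. Its groups overlapped (exact two-sided permutation p = 0.2, 0.2 adjusted over the 6 ratios).

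**Figure D2:**
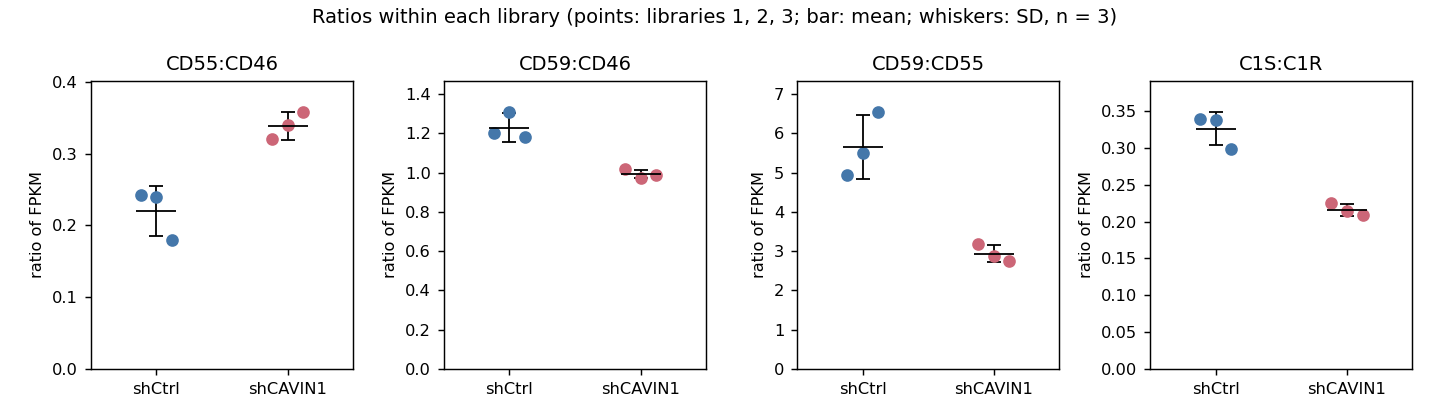
Ratio of FPKM of 2 complement genes within each library (vertical axes, linear and from 0), shCtrl in blue and shCAVIN1 in red, with the mean (bar) and SD (whiskers, n = 3). The groups are apart in all 4 panels, with CD55:CD46 higher and CD59:CD46, CD59:CD55 and C1S:C1R lower in shCAVIN1.

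C1R and C1S, which encode the paired proteases of the C1 complex, went in opposite directions. C1R stood at 17.1, 19.6 and 20.1 FPKM in shCtrl and at 24.0, 22.8 and 22.5 FPKM in shCAVIN1. It rose 1.22-fold, from 18.9 ± 1.58 to 23.1 ± 0.825 FPKM (log2 0.28, SE 0.0687, limma adjusted p = 0.0142). C1S stood at 5.81, 6.63 and 6.01 FPKM in shCtrl and at 5.40, 4.86 and 4.68 FPKM in shCAVIN1. It fell to 81.0% of control, from 6.15 ± 0.426 to 4.98 ± 0.372 FPKM (log2 -0.28, SE 0.0733, limma adjusted p = 0.0187). Neither pair of groups overlapped, as for 64.6% of all tested genes. The ratio of C1S to C1R was 0.339, 0.338 and 0.299 in shCtrl and 0.225, 0.214 and 0.209 in shCAVIN1, with an exact two-sided permutation p of 0.1 (0.12 adjusted over the 6 ratios).

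Both calls were near the threshold. That of C1R was lost without shCAVIN1 replicate 1 (log2 0.25, adjusted p = 0.0518) and under TPM (log2 0.40, adjusted p = 0.0982). That of C1S was lost without shCtrl replicate 3 (adjusted p = 0.0518), without shCAVIN1 replicate 2 (0.0682), without shCAVIN1 replicate 3 (0.0691) and under TPM (log2 -0.17, 0.481). The genes are neighbours on chromosome 12, C1S on the plus strand at 6988259 to 7071032 and C1R on the minus strand at 7080199 to 7092607 (GRCh38, GENCODE 29). C1R overlaps exons of its relative C1RL on the same strand, and C1S overlaps exons of EMG1, so fragments from the shared exons could have been counted for either gene.

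C3, the central protein of the cascade, was barely detected. It stood at 0.00780, 0.0166 and 0.0196 FPKM in shCtrl and at 0.0338, 0.0726 and 0.0341 FPKM in shCAVIN1. All 3 shCAVIN1 values were the higher ones, but none reached 0.1 FPKM. The means were 0.0147 ± 0.00614 and 0.0468 ± 0.0223 FPKM, and the mean over all 6 libraries was above that of 22.5% of protein-coding rows. Fitted without a filter on low values, its log2 fold change was 0.09 (SE 0.0342, limma adjusted p = 0.102, where 37.7% of 22580 rows were called and 18.7% were higher), on a scale where the pseudocount of 0.5 exceeds every value. It was 0.35 with a pseudocount of 0.1, 0.04 with a pseudocount of 1 and 0.05 without shCAVIN1 replicate 2. The ratio of C3 to C1R and C1S together rests on these values and changed sign with a pseudocount.

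CFI, which encodes factor I, was low and uneven in shCtrl. It stood at 0.506, 0.660 and 0.340 FPKM in shCtrl and at 0.301, 0.307 and 0.369 FPKM in shCAVIN1. The groups overlapped, since shCtrl replicate 3 lay below shCAVIN1 replicate 3. The means were 0.502 ± 0.160 and 0.326 ± 0.0378 FPKM, and without a filter the log2 fold change was -0.27 (SE 0.124, limma adjusted p = 0.15). That value was -0.16 without shCtrl replicate 2, -0.47 with a pseudocount of 0.1 and -0.18 with a pseudocount of 1. A read-through gene on the same strand shares exons with CFI, so its values are uncertain too.

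Over the wider pathway, 59 genes were listed from general knowledge, with earlier results of these data known, and all have a row. Of these, 15 passed the filter, 8 rose, 3 fell and 4 did not pass the test, beside 55.5% called among all tested genes. The median log2 fold change of the 15 was 0.28. Another 16 were listed at 0 in all 6 libraries, among them the chains of C1q (C1QA, C1QB and C1QC), the terminal components C6, C8A and C8B, and all 5 genes of the factor H related family. Leaving out the 7 genes above, 10 were tested, of which 5 rose and 2 fell.

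Among these 10, genes of the alternative pathway and C5 showed the largest rises. CFD, which encodes factor D, the protease that activates factor B, stood at 2.38, 2.19 and 1.68 FPKM in shCtrl and at 4.93, 4.81 and 5.92 FPKM in shCAVIN1. It rose 2.51-fold, to 5.22 ± 0.613 FPKM (log2 1.15, SE 0.128, limma adjusted p = 0.000601). CFB, which encodes factor B, stood at 2.24, 2.63 and 2.49 FPKM in shCtrl and at 4.90, 4.74 and 4.49 FPKM in shCAVIN1, a 1.92-fold rise (log2 0.82, limma adjusted p = 0.000206). C5, from which the anaphylatoxin C5a is cut, stood at 0.599, 0.649 and 0.595 FPKM in shCtrl and at 2.86, 2.89 and 2.64 FPKM in shCAVIN1. It rose 4.55-fold (log2 1.56, limma adjusted p = 2.52e-05), from a level near the filter. C2, the classical counterpart of factor B, rose 1.70-fold to 1.77 ± 0.0841 FPKM (log2 0.56, limma adjusted p = 0.00276). C2 and CFB lie next to each other and their annotated exons overlap. Another annotated protein-coding gene on the same strand overlaps exons of both, and how such fragments were assigned is not stated. COLEC12, a collectin of the cell surface, rose 1.82-fold to 1.01 ± 0.101 FPKM (log2 0.52, limma adjusted p = 0.00655).

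The inhibitor of C1r and C1s was lower. SERPING1, which encodes C1 inhibitor, stood at 4.19, 4.21 and 3.51 FPKM in shCtrl and at 2.25, 2.36 and 2.71 FPKM in shCAVIN1. It fell to 61.4% of control (log2 -0.60, SE 0.0941, limma adjusted p = 0.00232), and the call was lost under TPM (log2 -0.51, adjusted p = 0.0636). C1RL, a protease related to C1r, fell to 75.8% of control, from 6.46 ± 0.134 to 4.90 ± 0.321 FPKM (log2 -0.37, limma adjusted p = 0.0024), with the call lost under TPM (log2 -0.26, 0.235). Its overlap with C1R applies here as well.

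Among the other tested genes, 3 did not pass. CLU, which encodes clusterin, an inhibitor of the terminal pore, stood at 65.1 ± 3.04 and 61.0 ± 0.236 FPKM (limma adjusted p = 0.131). C1QBP, a mitochondrial protein that binds C1q, stood at 155 ± 14.0 and 136 ± 4.54 FPKM (limma adjusted p = 0.0695). Both passed as lower under quantile normalization and when scaled to protein-coding genes, C1QBP also without shCtrl replicate 2 (log2 -0.11, adjusted p = 0.0494), and CLU changed sign under TPM. MASP2, a protease of the lectin pathway, stood at 1.08 ± 0.247 and 1.17 ± 0.155 FPKM (limma adjusted p = 0.625).

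**Figure D3:**
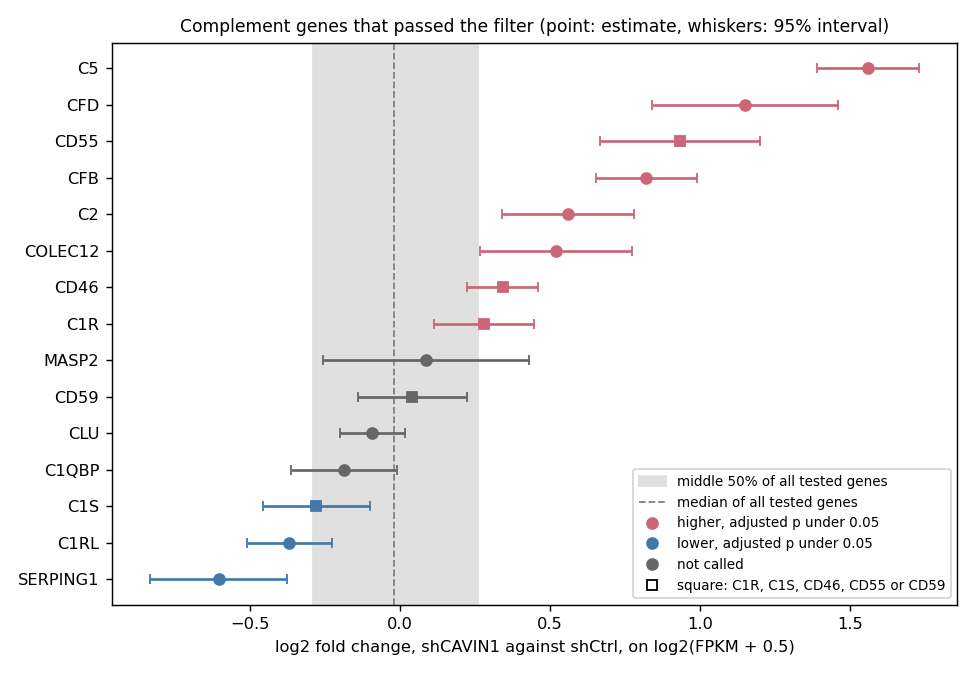
Log2 fold change with its 95% interval (horizontal axis, on log2(FPKM + 0.5)) of the 15 complement genes that passed the filter, ordered by size, with the middle 50% of all tested genes shaded (-0.29 to 0.26) and their median dashed. The whole intervals of C5, CFD, CD55, CFB, C2 and COLEC12 lie to the right of the shaded band and that of SERPING1 to its left. The points of CD46, C1R and C1RL lie outside the band with intervals that reach into it. C1S was called lower, but its point (-0.279) lies inside the band, with an interval that reaches outside it. CD59, CLU, C1QBP and MASP2 did not pass the test.

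Genes that build and remodel the GPI anchor carried by CD55 and CD59 were counted next. Of 30 listed genes 29 had a row and all of these were tested. There were 8 that rose, 9 that fell and 12 that did not pass, with a median log2 fold change of 0.06, and this share of calls is near the 55.5% over all tested genes. DPM3, a subunit of the enzyme that supplies mannose for the anchor, rose 3.51-fold, from 19.2 ± 1.31 to 67.4 ± 0.635 FPKM. PGAP2, which acts on the lipid part of the anchor after its attachment, fell to 43.1% of control, from 11.1 ± 0.143 to 4.79 ± 0.265 FPKM. PIGT, a subunit of the transamidase that attaches the anchor to proteins, fell to 64.8% of control, and PIGN, an enzyme of anchor synthesis, to 66.9%.

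Cytokines, their receptors and transcription factors known to act on complement genes formed another list. Of 24 listed genes 19 were tested, of which 8 rose, 4 fell and 7 did not pass, with a median log2 fold change of 0.00, and this share of calls too is near the 55.5% over all tested genes. IL6R, a receptor subunit for interleukin 6, rose from 0.453 ± 0.0421 to 1.81 ± 0.121 FPKM and passed the filter only through its shCAVIN1 level. NFKB1, a subunit of NF-kB, rose 1.46-fold to 10.4 ± 0.223 FPKM, and CEBPA, a C/EBP transcription factor, from 0.523 ± 0.0938 to 1.49 ± 0.215 FPKM. OSMR, the oncostatin M receptor, fell from 18.6 ± 2.71 to 9.25 ± 0.866 FPKM. Interferon gamma (IFNG) was listed at 0 in all 6 libraries.

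The tested genes nearest in pattern were found by the Euclidean distance between log2(FPKM + 0.5) values over the 6 libraries, each gene centred on its own mean, among 13940 genes. Nearest to CD55 were the row LOC101060398 (distance 0.140, from a mean of 6.20 to 12.3 FPKM) and NCEH1 (0.149, from 12.4 to 24.1 FPKM). Nearest to CD46 were PSMD8 (0.0456) and DENND1A (0.0471), and nearest to CD59 were HSPA8 (0.0216) and TMEM59 (0.0339). C1R was nearest to TMCC2 (0.0513) and TVP23B (0.0601), and C1S to PJA2 (0.0585) and C9orf41 (0.0659). None of these 10 genes was on the complement lists. With 6 libraries in 2 groups, such a distance mostly reflects the difference between the groups.

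**Figure D4:**
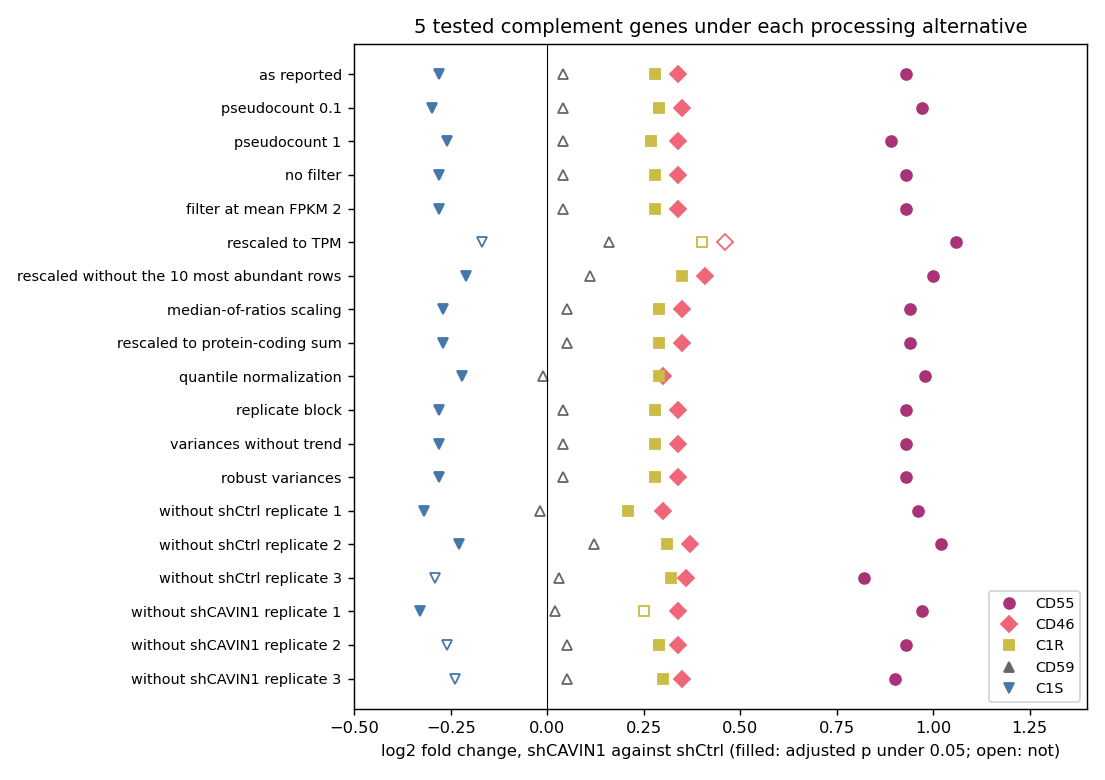
Log2 fold change (horizontal axis) of the 5 tested complement genes as reported and under each of 18 processing alternatives (rows), filled where the adjusted p is under 0.05 and open where it is not. CD55 is filled in every row, CD46 is open only under TPM, C1R and C1S are open in 2 and 4 alternatives, and CD59 is open in every row and crosses 0.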

How the data were processed

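Total RNA of 6 libraries (3 shCtrl, 3 shCAVIN1; groups from the sample titles) was made with an Illumina stranded kit, per the labels' protocols. The authors deposited 1 table of FPKM values per gene symbol. The submitters' processing notes name the build GRCh38 and, as tools, TopHat, TopHat2 (2.2.5 in those notes), bcl2fastq 2.17.1.14 and CASAVA. How fragments were quantified, with which annotation, filters and strand setting, is not given in the sources used here. FPKM is scaled by mapped fragments, so a few abundant RNAs lower all other values of a library.

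Genes with a mean FPKM of at least 0.5 (13941) were transformed to log2(FPKM + 0.5) and fitted by limma (3.58.1, under R 4.3.3) with a term for group alone and trended moderated variances, and p-values were adjusted over all of them by Benjamini-Hochberg, threshold 0.05. The code was tested on simulated data. Folds are ratios of mean FPKM. Log2 values understate changes of low genes. The design assumed FPKM or counts, and FPKM applied. The 7 genes and all lists were chosen with earlier results of these data known. Named were the 7 genes, complement genes past the threshold or with a mean FPKM of at least 1, up to 4 genes each of the GPI anchor and cytokine lists by adjusted p, and the 2 nearest genes in pattern. Marker genes, genes at 0 and genes of the chromosome 1 cluster were named outside that rule, after their values were seen. Motifs were chosen after the data were seen. Alternatives were other pseudocounts (0.1 and 1), filters (none and 2), scalings (TPM, without the 10 most abundant rows, median of ratios, quantile and protein-coding sum), variance models, a replicate block and leaving out each library.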

Additional observations from a re-analysis of the deposited data

How the results depend on the processing

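Under TPM scaling 1 of the 5 tested genes rose (CD55) and 0 fell. Of the wider pathway 6 genes rose and 0 fell, against 8 and 3 as reported. Over all tested genes 2199 rose and 1213 fell, against 3807 and 3927 as reported. The scaling to protein-coding genes was added after the data were seen. Leaving out 1 library gave 2 to 3 of the 5 genes higher and 0 to 1 lower. Of the wider pathway, 5 genes rose when only genes with a mean FPKM of 2 or more were kept, where fewer genes are tested, and 5 fell both under quantile normalization and when scaled to protein-coding genes. The sign turned for CD59 under quantile normalization (log2 -0.01) and without shCtrl replicate 1 (from -0.02 to 0.12 as each library was left out), for CLU under TPM (0.03), for MASP2 without shCtrl replicate 2 (from -0.04 to 0.18 as each library was left out), none of them called, and for the ratio of C3 to C1R and C1S with a pseudocount of 0.5 (log2 -0.07 against 1.52). Other causes were not tested. Same-numbered libraries deviated together with r of 0.0936, 0.0714 and -0.0282 over 13941 genes. Replicates 2 and 3 of shCtrl each correlated best with another number (0.0772 with shCAVIN1 replicate 3 and 0.0579 with shCAVIN1 replicate 1). All of these values are small and 0.0772 is close to 0.0714, so they cannot decide whether the numbers pair the samples. With the replicate number as a block, 3 of the 5 genes rose and 1 fell, as without it, and 3511 genes rose and 3656 fell over all. The unknown depth limits C3 and CFI most.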

Other observations

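Fitted without a filter on low values, 3 further complement genes passed as higher, named after their values were seen, where 37.7% of 22580 genes were called and 18.7% were higher. COLEC10, a collectin of the lectin pathway, stood at 0.132 ± 0.0671 FPKM in shCtrl and 0.586 ± 0.0350 FPKM in shCAVIN1 (limma adjusted p = 0.0011). MASP1, a protease of the same pathway, stood at 0.0321 ± 0.0136 and 0.165 ± 0.0250 FPKM (limma adjusted p = 0.00169). C4BPB, the beta chain of the C4b binding protein, stood at 0.101 ± 0.0871 and 0.395 ± 0.0673 FPKM (limma adjusted p = 0.0107), while C4BPA, its alpha chain, was listed at 0 in all 6 libraries. C3AR1, the receptor for the fragment C3a, stood at 0.143 ± 0.0482 and 0.0679 ± 0.00757 FPKM (limma adjusted p = 0.0629). These levels are too low to say more than that the rows differ in this table.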
